A study of Mus musculus with 8 samples.

Results

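The BCL2 family decides at the outer membrane of the mitochondrion whether a cell lives or dies, and 10 of its genes were followed here through B-cell development in mouse bone marrow. They were chosen by symbol from the mRNA table, which lists 22298 genes, and all 10 were found, each in 1 row. The list holds 4 pro-survival genes (Bcl2, Bcl2l1, Mcl1 and Bcl2a1b), 2 effectors (Bax and Bak1) and 4 genes of BH3-only proteins (Bcl2l11, Bad, Bbc3 and Pmaip1). The B220+ cells of untreated wild type C57BL/6 females, 8 to 10 weeks old, were sorted into 4 populations. Cells without IgM were taken as pro-B when CD43+ and as pre-B when CD43-, and IgM+CD43- cells as immature B or, where B220 was high, as mature B. For each stage the sorted cells of 3 mice were pooled, and an rRNA-depleted and a small RNA library were made, 1 of each, so no value below has a replicate check and no p-value is given.

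BAX and BAK are the effectors that open the outer mitochondrial membrane and release cytochrome c. The pro-survival proteins BCL2, BCL-XL (from Bcl2l1), MCL1 and A1 (from the Bcl2a1 genes) hold them and the BH3-only proteins in check, and BH3-only proteins such as BIM (from Bcl2l11), BAD, PUMA (from Bbc3) and NOXA (from Pmaip1) relieve that hold. In B cells the family is known for the death of progenitors that fail to make a receptor, for the removal of self-reactive immature cells and for the long life of recirculating mature cells.

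The estimated mRNA counts summed to 867920 in pro-B, 240231 in pre-B, 223495 in immature and 849350 in mature B cells. CPM below means the count divided by this sum and multiplied by 1000000. A read pair mostly gave 2 counts, since between 76.0% and 79.0% of the whole counts from 1 to 20 were even. Intervals are therefore exact 95% intervals on read pairs, and they cover counting error only, not the spread between mice. A count of 0 leaves room for 3 read pairs, which is 6.91 CPM in pro-B, 25.0 in pre-B, 26.8 in immature and 7.06 in mature B cells. The mRNA table held 23.7% and 23.5% of the mRNA and lncRNA counts together in pro-B and mature B cells, but 6.48% in both pre-B and immature B cells. FPKM values, which the authors scaled by transcript length and by mapped fragments, fell for most genes from pro-B to pre-B cells, with a median log2 ratio of -2.18, where CPM gave -0.28. They rose from immature to mature B cells by a median of 1.99, against 0.15 for CPM. Marker genes followed the labels in part: Dntt, the polymerase that adds bases at V(D)J joints, had 845 counts in the pro-B library and 0 in the others, and Ms4a1 (CD20) reached 1016 and 792 CPM in immature and mature B cells against 104 in pro-B and 41.6 in pre-B cells. Ighm, the heavy chain of IgM, stood at 3775 CPM in pro-B, 7147 in pre-B, 7816 in immature and 3902 in mature B cells, which is not the order of surface IgM. Rag1, a recombinase gene on the pre-B list, was highest in pro-B cells, at 918 CPM against 372 in pre-B cells. The rest of that list rose in CPM from the pro-B to the pre-B library. Rag2 went from 109 to 316, Vpreb3 from 182 to 295 and Il2ra from 68.0 to 83.3. By FPKM they fell as most genes did, Rag2 from 7.41 to 4.21, Vpreb3 from 46.58 to 19.71 and Il2ra from 4.07 to 1.1. The pro-B library also held 178 counts of 6 genes of T and NK cells, 5 of them above 0, where the pre-B and immature libraries held 0 and the mature library 5. Granulocyte and monocyte genes summed to between 794 and 1091 CPM in the 4 libraries, with 5 or 6 of 7 genes above 0 and Csf1r at 0 throughout. With 3 or 4 above 0 a library, 4 genes of plasmacytoid dendritic cells summed to 1740 CPM in pro-B, 412 in pre-B, 878 in immature and 819 in mature B cells. Irf8 made up most of this sum in mature B cells, with 536 of 696 counts. Siglech, of the same list, had 105 counts in pro-B, 0 in pre-B, 4 in immature and 0 in mature B cells. The part of other cell types in the levels below was not tested, and in pooled cells fewer cells of a type cannot be told apart from less RNA per cell.

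The 10 genes together took 1212 CPM in pro-B, 909 in pre-B, 904 in immature and 1067 in mature B cells. Mcl1, whose protein is short-lived and is needed for B-cell survival, took the largest part. It had 637 counts in pro-B, 108 in pre-B, 140 in immature and 553 in mature B cells, or 734 CPM (interval 657 to 820), 450 (338 to 587), 626 (488 to 791) and 651 (578 to 734). By FPKM, which allows for transcript length, it stood at 73.10, 13.75, 18.31 and 66.46 in the same order. These are rank 93 in pro-B, 213 in pre-B, 143 in immature and 126 in mature B cells among all listed genes. Mcl1 was thus the highest member in each library, with 60.5%, 52.0%, 63.4% and 67.6% of the members' summed FPKM. Next by FPKM came Bcl2l11 in the pro-B, the pre-B and the mature library, at 19.88, 3.16 and 7.60. In immature B cells it was Bax, at 4.58.

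**Figure D1:**
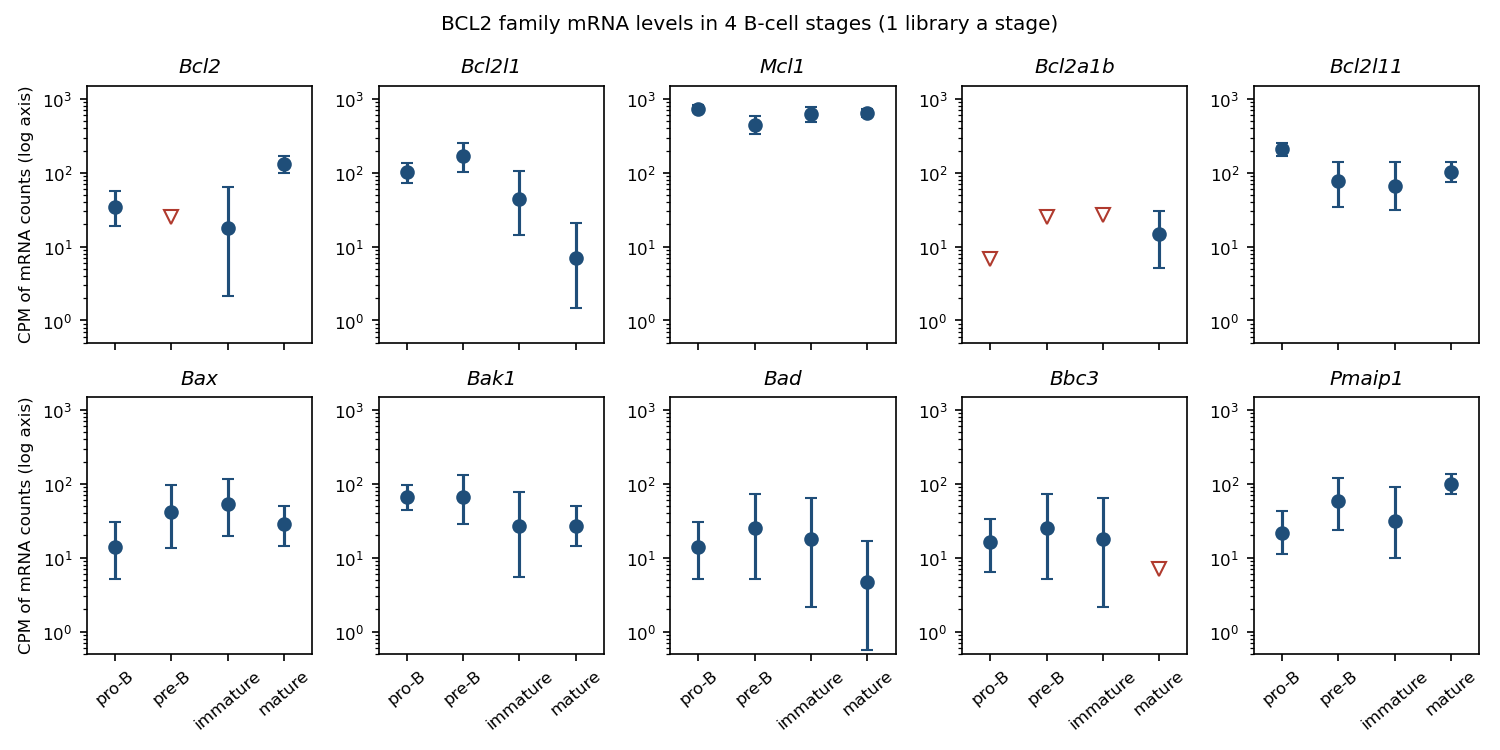
Level of each BCL2 family gene in the 4 libraries, in CPM of the summed mRNA counts on a log axis. Circles with bars give the value and its exact 95% counting interval, and open triangles give the limit where the count was 0. Mcl1 lies between 450 and 734 CPM, Bcl2 is highest and Bcl2l1 lowest in mature B cells.

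Mcl1 changed little between the libraries in CPM. Its pre-B level was 1.63-fold below that of pro-B cells (interval 1.22 to 2.22), and the next step, 1.39-fold up in immature B cells, had an interval that reached 1 (0.963 to 2.03). Between immature and mature B cells the ratio was 1.04 (0.798 to 1.37), and mature over pro-B it was 0.887 (0.753 to 1.05). The levels of the pro-B, immature and mature libraries were therefore not told apart at this depth.

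Bcl2, the founding pro-survival gene of the family, had 30 counts in pro-B, 0 in pre-B, 4 in immature and 111 in mature B cells. That is 34.6 CPM (interval 19.3 to 57.0) in pro-B cells, under 25.0 in pre-B cells, 17.9 (2.17 to 64.7) in immature and 131 (99.6 to 171) in mature B cells. The mature library stood above the other three, whose intervals overlapped. It was 3.78-fold above pro-B cells (2.13 to 7.26) and 7.30-fold above immature B cells (1.95 to 62.3). Over the pre-B limit it was 5.23-fold higher, with an interval that goes down to 4.15-fold. The count of 0 in pre-B cells puts the limit 1.38-fold below the pro-B level, but the interval of the pre-B over pro-B ratio reaches 1.01, so a drop at this step was not detectable at this depth.

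Bcl2l1, which encodes BCL-XL, ran the other way. Its counts were 88 in pro-B, 40 in pre-B, 10 in immature and 6 in mature B cells, or 101 CPM (73.7 to 136), 167 (102 to 257), 44.7 (14.5 to 104) and 7.06 (1.46 to 20.6). Pre-B cells had the highest level in CPM, and their ratio over pro-B cells was 1.64 (0.917 to 2.85). By FPKM the order of these 2 libraries was reversed, 10.51 in pro-B and 3.09 in pre-B cells, which was still 0.42 above the median log2 ratio of all genes. Immature B cells were 3.72-fold below pre-B cells (1.36 to 12.7), and mature B cells were 6.33-fold below immature B cells (1.23 to 40.8). From pro-B to mature B cells the level was 14.4-fold lower (4.60 to 72.3). Neither interval of the 2 later steps includes 1, but both steps were smaller on other scales. The log2 ratio of immature over pre-B cells was -1.90 by CPM and -0.89 by FPKM, under 2-fold. That of mature over immature B cells was -2.66 by CPM, -1.12 by FPKM and, with the totals of mRNA and lncRNA counts together, -0.80, again under 2-fold.

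Bcl2a1b, a gene of the A1 protein that NF-kB induces in B cells and myeloid cells, had 12.78 counts in the mature library and 0 in each of the other three. This is 15.0 CPM (5.18 to 30.8), 2.18-fold above the limit of pro-B cells, with an interval that goes down to 1.20-fold. The limits in pre-B and immature B cells, 25.0 and 26.8 CPM, lie above the mature level, so nothing can be said of those steps. Bcl2a1d, a near-identical copy, had 2.39 counts in the mature library only, and Bcl2a1a and Bcl2a1c were listed at 0 throughout. Reads could be split among these copies, so the level of any of them is uncertain.

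From pro-B to mature B cells the effectors differed in direction by CPM, though the ratio of Bax, 2.04 (0.710 to 6.64), was not resolved. Bax had 12 counts in pro-B, 10 in pre-B, 12 in immature and 24 in mature B cells, or 13.8 CPM (5.07 to 30.1), 41.6 (13.5 to 97.1), 53.7 (19.7 to 117) and 28.3 (14.6 to 49.4). Only the immature over the pro-B library gave an interval without 1 among the 6 pairs of libraries, at 3.88-fold (1.04 to 14.5). By FPKM Bax stood at 4.58 in immature and 4.73 in pro-B cells, so that rise was absent on this scale. Bak1 had 58, 16, 6 and 23 counts in the same order of stages, or 66.8 CPM (44.8 to 96.0), 66.6 (28.8 to 131), 26.8 (5.54 to 78.5) and 27.1 (14.6 to 49.4). Pre-B over pro-B cells gave a ratio of 0.997 (0.394 to 2.23) and mature over immature B cells 1.01 (0.284 to 5.81), with intervals that leave room for 2-fold changes. Mature B cells were 2.47-fold below pro-B cells (1.17 to 5.09). By FPKM the effectors stood side by side in pro-B cells, Bax at 4.73 and Bak1 at 5.10, and Bax was the higher in mature B cells, 5.93 against 2.73.

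Bcl2l11, whose product BIM is the main BH3-only protein in the deletion of self-reactive B cells, was highest in pro-B cells. Its counts were 181.55 in pro-B, 18.35 in pre-B, 15 in immature and 87.75 in mature B cells, or 209.2 CPM (169 to 257), 76.4 (34.3 to 142), 67.1 (30.9 to 141) and 103 (75.3 to 139). The step to pre-B cells was a fall of 2.74-fold (1.41 to 6.32). The later 3 libraries could not be ordered, since mature over immature B cells gave 1.54 (0.674 to 3.56). Mature B cells stayed 2.02-fold below pro-B cells (1.40 to 2.97), at the edge of the 2-fold call, with log2 ratios of -1.02 by CPM, -0.87 with library sizes adjusted by TMM (edgeR) and -0.84 with DESeq2 size factors.

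Pmaip1, the gene of NOXA, which binds MCL1 and A1, had its highest level in mature B cells, though not told apart from pre-B cells. It had 19 counts in pro-B, 14 in pre-B, 7 in immature and 85 in mature B cells, or 21.9 CPM (11.1 to 42.4), 58.3 (23.4 to 120), 31.3 (9.75 to 91.6) and 100.1 (73.3 to 136). Mature B cells were 4.57-fold above pro-B cells (2.17 to 9.81) and 3.20-fold above immature B cells (1.03 to 10.9), but the ratio over pre-B cells was 1.72 (0.775 to 4.58). The 2.66-fold ratio of pre-B over pro-B cells had an interval from 0.817 to 7.36.

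Bad and Bbc3 were near the limit of the libraries. Bad, a BH3-only gene tied to growth factor signals, had 12, 6, 4 and 4 counts from pro-B to mature B cells. Bbc3, a p53 target whose product PUMA binds all the pro-survival proteins, had 14, 6, 4 and 0. With the mature count of 0 set at 3 read pairs, Bbc3 was 2.28-fold lower in mature than in pro-B cells, and the interval allows a fall of as little as 1.41-fold. Bad was 2.94-fold lower there, with an interval from 0.525 to 29.7 that includes 1. No step between neighbouring stages was resolved for either.

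Counted over the list, members were called when the CPM differed at least 2-fold and 1 of the 2 libraries had at least 10 counts. From pro-B to pre-B cells 9 of the 10 members could be compared, and Bax and Pmaip1 were higher and Bcl2l11 lower. Of 9152 genes compared at that step, 14.8% were higher and 28.1% lower. From pre-B to immature B cells 6 members could be compared, none was higher, and Bcl2l1 and Bak1 were lower, where 18.2% of 5838 genes were higher and 18.8% lower. From immature to mature B cells 8 could be compared, Bcl2 and Pmaip1 were higher and Bcl2l1 lower, and 24.5% of 8363 genes were higher and 18.1% lower. Bcl2a1b is among those 8 as not called, only because the limit of its count of 0 lies above its mature level. Mature against pro-B cells, all 10 could be compared, with 4 higher (Bcl2, Bcl2a1b, Bax and Pmaip1) and 5 lower (Bcl2l1, Bcl2l11, Bak1, Bad and Bbc3), Bcl2a1b and Bbc3 with their count of 0 set at 3 read pairs. Of these calls, those of Bax (log2 ratio 0.33) and Bak1 (-0.90) ended by FPKM, and that of Bcl2l11 ended with TMM sizes (-0.87) and DESeq2 size factors (-0.84). The background there was 12.8% higher and 23.1% lower of 9634 genes. The interval excluded 1 for 7 of those 10 members, the others being Mcl1, Bax and Bad. At the 3 steps between neighbouring stages it did so for 2 (Mcl1 and Bcl2l11), 1 (Bcl2l1) and 3 members (Bcl2, Bcl2l1 and Pmaip1). The calls of Bax and Pmaip1 from pro-B to pre-B cells had intervals that include 1. So did that of Bak1 from pre-B to immature B cells, at 0.403 (0.0689 to 1.68). How often the interval excluded 1 among all genes was not computed, so these counts have no background beside them.

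CPM and FPKM parted at the first and the last step. By FPKM, all 8 members listed above 0 in both libraries had lower values at the pre-B stage than before it, among them Bax (log2 ratio -1.12) and Pmaip1 (-1.01), which were higher in CPM. Set against the median of all genes on each scale, Bax stood at 1.87 by CPM and 1.06 by FPKM on the log2 scale, and Pmaip1 at 1.69 and 1.17. Bcl2l11 stood below the median gene on both, at -1.18 and -0.47. From pre-B to immature B cells the median of all genes was near 0 on both scales (-0.02 and 0.02), but the log2 ratio of Pmaip1 turned from -0.90 by CPM to 0.19 by FPKM. For mature against pro-B cells the median moved little as well, from -0.19 to -0.15, while members still shifted against it. Bcl2 was at 2.11 by CPM and 2.39 by FPKM against the median gene, Bcl2l1 at -3.65 and -3.62, and Mcl1 at 0.02 and 0.01. Bax went from 1.22 to 0.47, Bad from -1.36 to -2.31, Pmaip1 from 2.38 to 1.81, Bcl2l11 from -0.83 to -1.24 and Bak1 from -1.11 to -0.75.

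**Figure D2:**
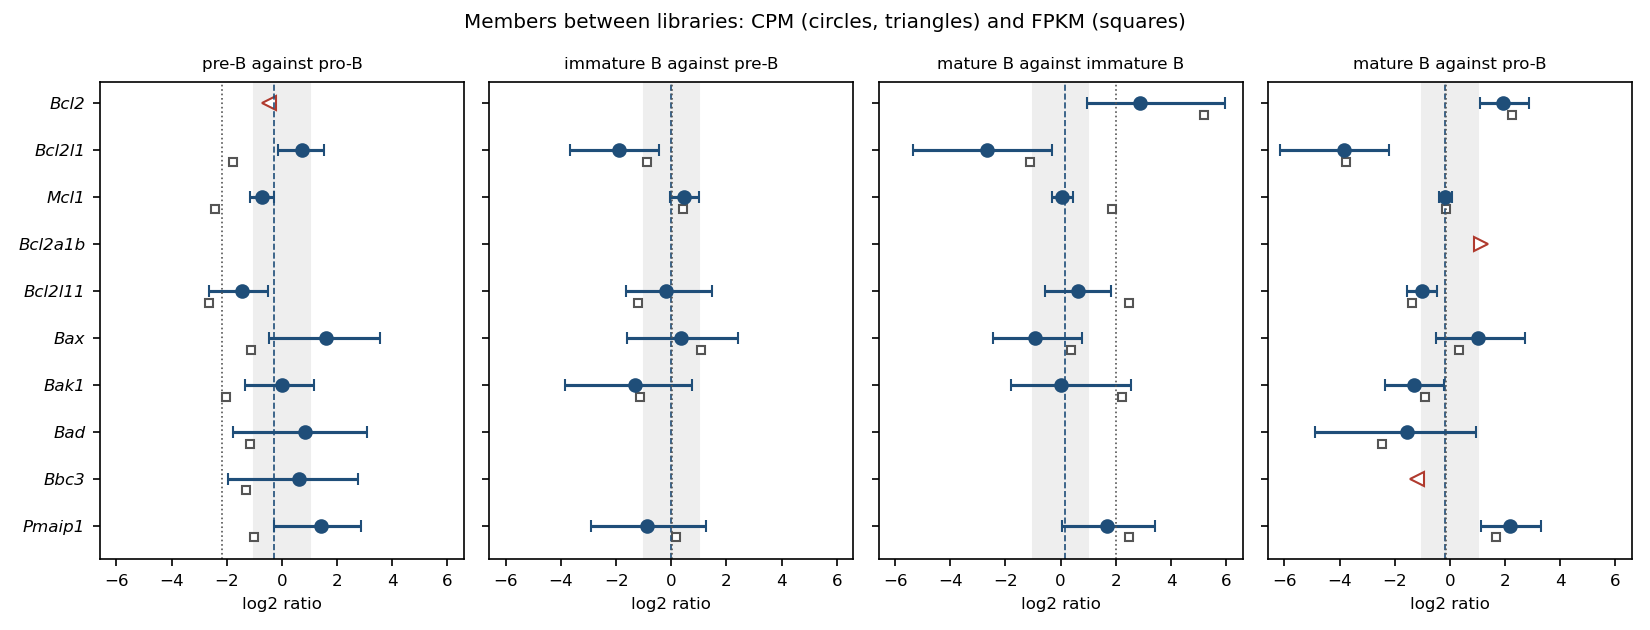
Log2 ratio of each member in the 4 comparisons. Circles with bars are CPM ratios with exact 95% counting intervals, open triangles are ratios with a count of 0 set at 3 read pairs, grey squares are ratios of the deposited FPKM values where both are above 0, the shaded band marks changes under 2-fold, and dashed and dotted lines mark the median of all genes by CPM and by FPKM. Circles and squares part company from pro-B to pre-B and from immature to mature B cells and lie closer together for mature against pro-B cells.

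Ratios of 2 members within a library do not depend on the library's scale. The count of Bcl2 over that of Bcl2l1 was 0.341 (interval 0.176 to 0.624) in pro-B cells, under 0.150 in pre-B cells, 0.400 (0.0381 to 2.44) in immature and 18.5 (6.07 to 93.2) in mature B cells. The pair thus changed places, and from pro-B to mature B cells its ratio rose 54.3-fold (13.9 to 298). All ratios over Bcl2l1 in mature B cells rest on its 6 counts there, the 3 read pairs that a count of 0 leaves room for. The FPKM values gave 0.0809, 0, 0.0659 and 5.21, a rise of 64.4-fold. By length-scaled level as well, Bcl2l1 was the higher of the pair in the first 3 stages and Bcl2 in mature B cells. In immature B cells this order rests on 4 and 10 counts, and the interval of the count ratio includes 1. From pro-B to pre-B cells the ratio fell 2.27-fold with the 0 counts of Bcl2 set at 3 read pairs, and the interval allows a fall of as little as 1.43-fold.

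Against Mcl1, Bcl2 rose 4.26-fold from pro-B to mature B cells (2.33 to 8.36), from a count ratio of 0.0471 to 0.201, and it still reached only 0.0603 of Mcl1 by FPKM. Against Bcl2l11, the gene of its BH3-only partner, it rose 7.66-fold (3.77 to 16.2), from 0.165 to 1.26. Mcl1 over Bcl2l1 was 7.24 in pro-B, 2.70 in pre-B, 14.0 in immature and 92.2 in mature B cells. It fell 2.68-fold into the pre-B stage (1.38 to 5.06) and then rose at both later steps, 5.19-fold (1.72 to 18.6) and 6.58-fold (1.24 to 43.2). Relative to the other members, pre-B cells were thus the stage with most Bcl2l1, which made up 18.3% of the members' counts there (95% Wilson interval 12.2% to 26.6%), against 8.37% in pro-B and 0.662% in mature B cells. By FPKM its share differed less between the first stages, 11.7% in pre-B against 8.71% in pro-B cells, and was 0.783% in mature B cells. On that scale Mcl1 over Bcl2l1 fell 1.56-fold into the pre-B stage and then rose 2.46-fold and 7.87-fold. Mcl1 over Bcl2l11 moved less, from 3.51 in pro-B to 6.30 in mature B cells, a rise of 1.80-fold (1.19 to 2.73). It was highest in immature B cells, at 9.33, not told apart from mature B cells (mature over immature 0.675, 0.280 to 1.64). The count ratio of Bax over Bak1 rose from 0.207 in pro-B to 1.04 in mature B cells, 5.04-fold (1.28 to 19.2), and the FPKM ratio rose 2.34-fold.

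**Figure D3:**
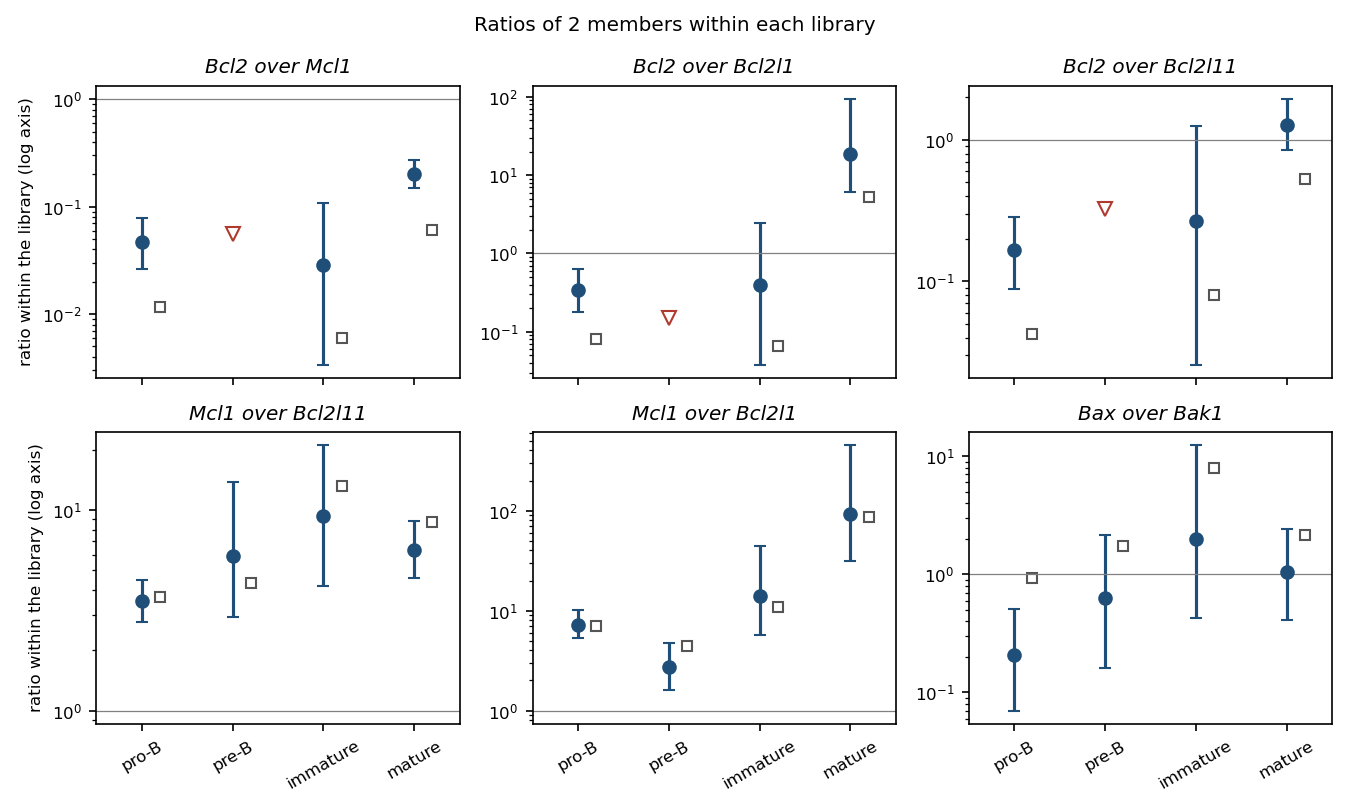
Ratio of 2 members within each library on log axes. Circles are count ratios with exact 95% intervals, open squares are FPKM ratios, open triangles are limits where the first gene had 0 counts, and the grey line is a ratio of 1. Bcl2 over Bcl2l1 lies at 0.341 in pro-B and 18.5 in mature B cells.

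As shares of the members' counts, Bcl2 rose from 2.85% (1.74% to 4.65%) in pro-B to 12.2% (9.64% to 15.7%) in mature B cells and Pmaip1 from 1.81% (1.04% to 3.46%) to 9.38% (7.12% to 12.5%). Bcl2l11 fell from 17.3% (14.3% to 20.8%) to 9.68% (7.32% to 12.8%). The share of Mcl1 was 60.6% (56.4% to 64.7%) in pro-B, 49.5% (40.3% to 58.8%) in pre-B, 69.3% (59.7% to 77.5%) in immature and 61.0% (56.6% to 65.5%) in mature B cells.

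**Figure D4:**
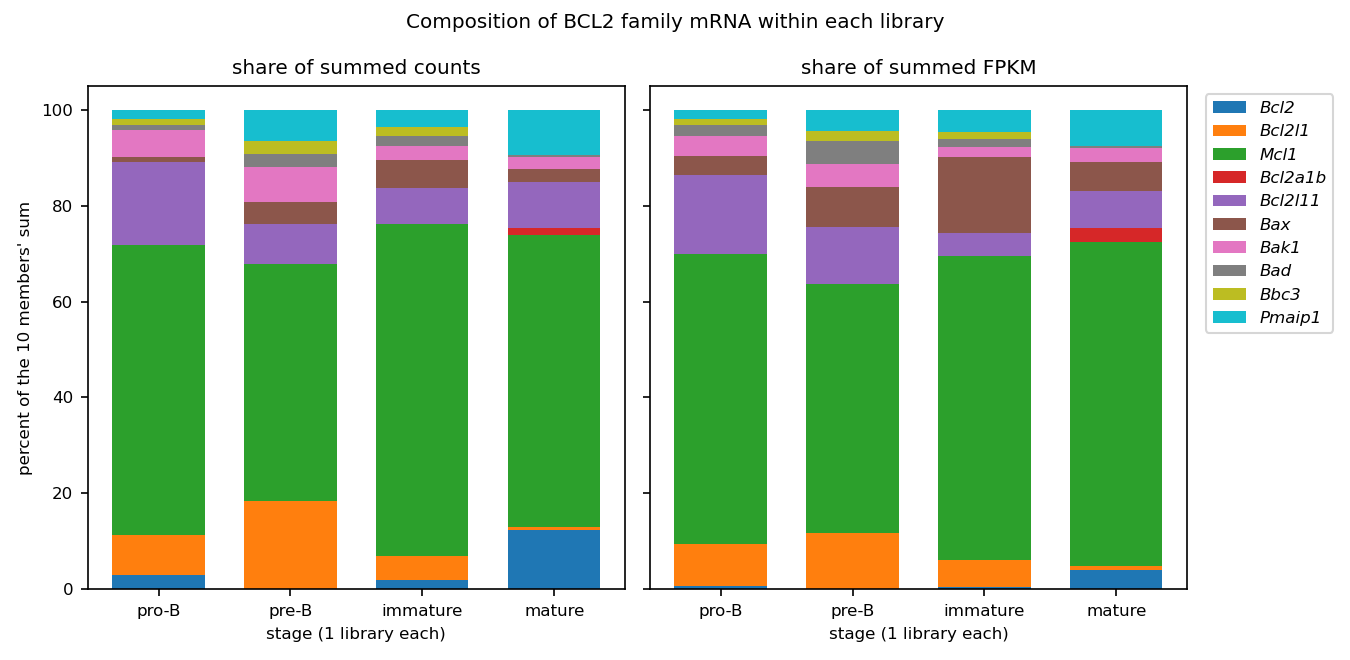
Share of each member in the members' summed counts (left) and summed FPKM (right), in percent, for 1 library a stage. Mcl1 takes the largest part of each bar, Bcl2l1 is widest in pre-B cells at 18.3% of counts, and Bcl2 and Pmaip1 widen in mature B cells to 12.2% and 9.38%.

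Further genes of the family were mostly undetected. Bid, Bik and Hrk (BH3-only), Bok (an effector relative) and Bcl2l10 were listed at 0 in all 4 libraries. Bmf, a BH3-only gene linked to the cytoskeleton, had 92 counts in pro-B, 57 in pre-B, 16 in immature and 31 in mature B cells, or 106, 237, 71.6 and 36.5 CPM. Its CPM was highest in pre-B cells, 2.24-fold above pro-B (1.38 to 3.70), and was 3.31-fold lower in immature B cells (1.5 to 8.54). Its FPKM was 9.52 in pro-B and 5.70 in pre-B cells, so the first of these steps turned on that scale. Bcl2l2, the pro-survival gene of BCL-W, had 30 counts in pro-B, 4 in pre-B, 0 in immature and 6.06 in mature B cells, 4.84-fold lower in mature than in pro-B cells (1.38 to 26.4).

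Downstream of the mitochondrion, 11 genes of the apoptosome, caspases and their inhibitors were listed. From pro-B to pre-B cells 3 of 11 were higher and 4 lower, from pre-B to immature 2 and 3 of 7, from immature to mature 3 and 0 of 10, and from pro-B to mature 2 and 2 of 11. Over all genes the shares higher and lower were 14.8% and 28.1%, 18.2% and 18.8%, 24.5% and 18.1%, and 12.8% and 23.1% in the same order. Apaf1, the scaffold that cytochrome c activates, had 135.04 counts in pro-B and 59 in mature B cells, 2.24-fold lower in CPM (1.42 to 3.53). Birc3, an inhibitor of apoptosis that NF-kB induces, had 180.83 counts in pro-B and 371 in mature B cells, 2.1-fold higher (1.63 to 2.75).

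The genes that act on the members themselves gave a mixed picture. Of 7 genes of the p53 arm, 0 were higher and 3 lower from pro-B to pre-B cells, and 1 was higher and 2 lower from pro-B to mature B cells. Between these, 1 of 5 was higher and 1 lower from pre-B to immature B cells, and 1 of 5 was higher and 0 lower from immature to mature. These counts and those of the next 2 small lists stand beside the same shares of all genes, which were 14.8% higher and 28.1% lower from pro-B to pre-B cells and 12.8% and 23.1% for mature against pro-B cells. Mdm2, the ligase that p53 induces and that degrades it, was 1.98-fold above the pro-B level at the pre-B stage (1.26 to 3.06), while Trp53 itself gave 1.28 (0.486 to 2.91). By FPKM both genes stood below their pro-B values, Mdm2 at 6.65 against 10.62 and Trp53 at 1.57 against 9.11. Of Huwe1 and Fbxw7, ligases for MCL1, Usp9x, which removes ubiquitin from it, and Vdac2, a partner of BAK, 2 of 4 were lower from pro-B to pre-B cells. None of the 4 was called from pre-B to immature B cells or from pro-B to mature B cells. Huwe1 was 3.38-fold higher in mature than in immature B cells (2.37 to 4.91). Of 6 death receptor genes, Fas was listed at 0 in each library, and 1 of 5 was higher and 3 lower from pro-B to pre-B cells. At later steps 0 of 2 were called, then 2 of 5 higher and 1 lower, and 0 of 5 were called for mature against pro-B cells. Of 154 genes annotated to the KEGG apoptosis pathway, 9 of 110 compared were higher and 42 lower from pro-B to pre-B cells, with a median log2 ratio of -0.58 beside -0.28 for all genes. The other comparisons gave 13 and 12 of 73 (-0.21 beside -0.02), 29 and 11 of 101 (0.34 beside 0.15), and for mature against pro-B 19 and 31 of 111 (-0.17 beside -0.19). Over all genes the shares higher and lower were 14.8% and 28.1% from pro-B to pre-B and 18.2% and 18.8% from pre-B to immature B cells. From immature to mature B cells they were 24.5% and 18.1%, and for mature against pro-B cells 12.8% and 23.1%.

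The genes whose profile over the 4 libraries lay nearest to a member were sought among 1703 genes with at least 20 counts in every library, by distance between centred log2(CPM + 1) values. For Mcl1 these were Cct2, Oser1 and Csnk1a1, at distances of 0.13, 0.14 and 0.14. Rcsd1, Il17ra and Git2 came nearest to Bcl2l11, at 0.14, 0.15 and 0.20. Lcp1, Sorl1 and Mycbp2 came nearest to Bcl2, but at 2.70, 2.94 and 3.0, since no gene of that set shares its count of 0 in pre-B cells. With 4 points a profile, the distances are a description.

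Several miRNAs known to bind the transcripts of members were measured in the small RNA libraries of the same stages. miR-15a, miR-15b, miR-16 and miR-34a are known for Bcl2, the miR-17-92 cluster for Bcl2l11, miR-29 for Mcl1 and miR-125b for Bak1. Their mature sequences are shown, 5′ to 3′, because the seed (bases 2 to 8, in capitals) groups them: miR-15a, miR-15b and miR-16 share 1 seed, miR-17 and miR-20a share another, and the miR-29 forms share one of their own. The sequences are those of RefSeq (GRCm38.p6), and all 12 miRNAs looked for matched by name.
miR-15a-5p: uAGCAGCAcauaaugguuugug
miR-15b-5p: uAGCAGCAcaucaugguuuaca
miR-16-5p: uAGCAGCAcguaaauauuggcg
miR-34a-5p: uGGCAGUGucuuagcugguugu
miR-17-5p: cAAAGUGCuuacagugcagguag
miR-20a-5p: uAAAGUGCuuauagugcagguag
miR-29a-3p: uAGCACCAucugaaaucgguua
miR-29b-3p: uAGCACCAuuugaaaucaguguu
miR-125b-5p: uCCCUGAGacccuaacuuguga

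The Bcl2-directed group did not move as one. In TPM, the tags scaled to 1000000 clean tags of the library, miR-16-5p stood at 6623 in pro-B, 8885 in pre-B, 9452 in immature and 6038 in mature B cells. miR-15b-5p, encoded beside it on chromosome 3 (chr3:69009775-69009796, plus strand), stood at 4277, 9526, 6057 and 2155, and miR-15a-5p at 237, 208.8, 303 and 118. In these libraries all 3 were lowest in mature B cells, where Bcl2 mRNA was highest. miR-34a-5p, a p53 target, fell from 40 tags (39.7 TPM) in pro-B to 27, 5 and 2 tags in the later stages, the last 2 too few to order.

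Within the cluster on chromosome 14, miR-17-5p, miR-20a-5p and miR-92a-3p were lower in mature than in pro-B cells and miR-19b-3p was higher. miR-17-5p (chr14:115043684-115043706, plus strand) stood at 628, 915, 670 and 163 TPM from pro-B to mature B cells, and miR-20a-5p at 541, 800, 766 and 137. Mature over pro-B, these are 3.84-fold and 3.96-fold lower. miR-92a-3p stood at 60210, 44554, 34904 and 38192, and miR-19b-3p at 475, 786, 1222 and 598, 1.58-fold lower and 1.26-fold higher, and both of these have a further copy on chromosome X. Bcl2l11 mRNA, in CPM, was 2.02-fold lower in mature than in pro-B cells, in the same direction as miR-17-5p and miR-20a-5p.

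The miR-29 pair rose. miR-29a-3p (chr6:31062673-31062694, minus strand) went from 3004 TPM in pro-B cells through 1554 and 2220 to 10983 in mature B cells, 3.66-fold above pro-B. miR-29b-3p, with 163 TPM in mature B cells, was 2.93-fold above its 55.5 in pro-B cells. Mcl1 mRNA over the same stages gave the ratio of 0.887 above. miR-125b-5p ran from 7998 in pro-B through 3149 and 501 to 1391 TPM in mature B cells, 5.75-fold lower than in pro-B cells, where Bak1 mRNA too was 2.47-fold lower. miR-155-5p, a miRNA of activated B cells, stayed between 74.0 and 122 TPM. With 1 small RNA library a stage, these are values side by side, and no relation between miRNA and mRNA was tested.

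**Figure D5:**
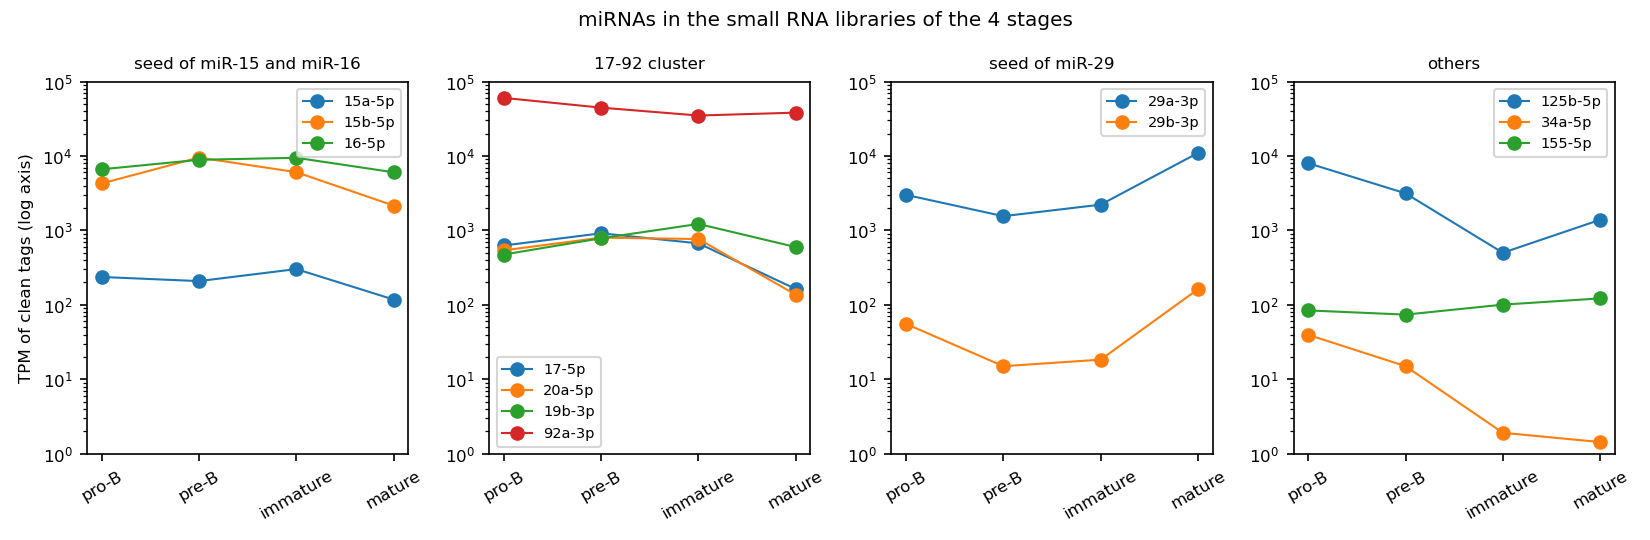
TPM of 12 miRNAs in the small RNA libraries of the 4 stages, on log axes, grouped by seed or cluster, with 1 library a point. miR-17-5p and miR-20a-5p are lowest in mature B cells at 163 and 137 TPM, and miR-29a-3p is highest there at 10983.

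Bcl2 and Bcl2a1b, the 2 pro-survival members called higher in mature than in pro-B cells, differ in the CpG content of their starts. RefSeq windows (GRCm38.p6) from 250 bases before to 50 after the start were at hand for 9 of the 10 members used here, some with several starts, among 32851 windows of 300 bases. Pmaip1 had none. The letters CG, which read the same on both strands, occurred a median of 7 times in all windows. The Bcl2 window (chr1:106714241-106714540, minus strand) holds 44, and 97.8% of all windows hold fewer. The Bcl2a1b window (chr9:89199023-89199322, plus strand) holds 4, and 31.4% hold fewer. Both are shown 5′ to 3′ on the strand of the gene with CG in capitals. They are the 2 pro-survival genes called higher in mature than in pro-B cells, Bcl2a1b on 12.78 counts against 0.
Bcl2: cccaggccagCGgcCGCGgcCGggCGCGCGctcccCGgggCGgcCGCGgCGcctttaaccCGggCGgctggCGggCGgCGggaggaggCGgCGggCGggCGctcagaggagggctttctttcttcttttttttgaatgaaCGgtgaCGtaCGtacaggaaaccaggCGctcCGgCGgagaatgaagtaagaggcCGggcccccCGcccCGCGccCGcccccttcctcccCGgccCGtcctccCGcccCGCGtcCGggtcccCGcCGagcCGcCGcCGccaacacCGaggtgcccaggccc
Bcl2a1b: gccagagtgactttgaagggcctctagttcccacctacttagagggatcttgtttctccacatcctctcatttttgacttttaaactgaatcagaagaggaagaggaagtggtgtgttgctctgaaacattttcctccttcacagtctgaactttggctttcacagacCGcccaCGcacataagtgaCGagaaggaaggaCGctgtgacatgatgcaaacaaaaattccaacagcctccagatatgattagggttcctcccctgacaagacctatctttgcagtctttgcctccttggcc

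Among the other members, the Mcl1 window holds 33 CG and those of Bcl2l11 27 and 38. The 3 Bcl2l1 windows hold 1, 14 and 22, which shows how far starts of the same gene differ. Bax has 19, Bak1 11, Bad 27 and 21, and Bbc3 34, 30 and 39. The mRNA table gives 1 value a gene and does not tell which start was used. These counts are therefore a description of sequence, and a relation to the levels was not tested.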

How the data were processed

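Reads were trimmed (fastp 0.18.0), freed of rRNA (Bowtie2 2.2.8) and aligned (HISAT2 2.1.0) by the authors, who deposited estimated counts and FPKM values per gene from StringTie 1.3.4, not normalized and scaled by length and mapped fragments respectively. The submitters' notes name Bowtie 0.12.2 and mm9, and the paper names no build. Counts of miRNA tags and TPM values were deposited after filtering by GenBank and Rfam and naming by miRBase 22. Back-spliced read counts of circRNAs, deposited with RPM values that were not used, served for a search of parental genes.

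CPM was computed from the mRNA column totals of the 4 rRNA-depleted libraries, each assigned by its label. With 1 library a stage there was no test. Ratios carry exact 95% conditional binomial intervals, computed on counts divided by 2. The plan had single counts and a limit of 3 counts for a count of 0; after the even counts were seen, read pairs were used, with a limit of 3 pairs (6 counts). A call needed 10 counts in 1 of 2 libraries and a 2-fold ratio. Where the limit for a count of 0 lay past the level of the other library, the ratio was set to 1. Such genes counted as compared and not called, among members, lists and all genes alike. The rule was tested on simulated data with counting error only, at higher counts and a larger change than many calls here. That simulation does not bear on calls at low counts. Named are all members, genes of the lists with at least 10 counts in some library, the 3 nearest profiles of Bcl2, Mcl1 and Bcl2l11, and 12 miRNAs. Genes listed at 0, copies of Bcl2a1b and marker genes were named besides. Members and lists were chosen with earlier results of these data known. Alternatives were edgeR 4.0.16 TMM sizes, DESeq2 1.42.0 size factors, totals without immunoglobulin and mitochondrial genes, FPKM, no filter, and 1.5-fold, with the totals of mRNA and lncRNA together and the 3-count limit added after the data were seen. Python 3.11.15 (numpy 2.4.6, pandas 2.3.3, scipy 1.17.1, matplotlib 3.10.9) and R 4.3.3 were used.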

Additional observations from a re-analysis of the deposited data

Results flagged for a closer look

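The lncRNA table, which the comparisons did not use, lists noncoding transcripts under the symbol Bcl2l11 with counts above the 6 that a count of 0 allows. ENSMUST00000146023 had 46.95 counts in pro-B, 10.02 in pre-B, 4 in immature and 22.67 in mature B cells, and ENSMUST00000132201 had 7, 2, 0 and 0. Both were highest in the pro-B library, as was the mRNA row of Bcl2l11. Reads of coding and noncoding transcripts of 1 gene can be split by the estimate.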

How the results depend on the processing

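No paired analysis was possible because each stage has 1 library, and no library could be left out. The counts of called members held within 1.5 times under TMM sizes, DESeq2 size factors and totals without immunoglobulin and mitochondrial genes. With FPKM, 0 members rose 2-fold and 9 fell 2-fold from pro-B to pre-B, 1 was higher in immature than in pre-B cells and 6 were higher in mature than in immature B cells. With the totals of mRNA and lncRNA together, 0 were higher and 7 lower at the step to pre-B. Of all genes 2.11% were higher and 81.6% lower there. At the step to mature B cells 6 were higher and 0 lower, beside 77.3% and 3.07% of all genes. On both scales most genes thus moved the same way at these steps. The log2 ratio of Bax in pre-B against pro-B cells turned to -1.12 with FPKM and -0.28 with the joint totals, and that of Pmaip1 to -1.01 and -0.46. At 1.5-fold, 5 rose and 2 fell from pro-B to pre-B, and 2 were lower in mature than in immature B cells. With a limit of 3 counts, 2 fell from pro-B to pre-B, Bcl2 being the one added. Without the filter on low counts, 2 were lower in mature than in immature B cells. For the 1.5-fold, 3-count and unfiltered settings the shares of all genes were not computed. The counts for mature against pro-B cells stayed within 1.5 times in every alternative, though the calls of Bax and Bak1 ended with FPKM and that of Bcl2l11 with TMM sizes and DESeq2 size factors. Mcl1 took 67.6% of summed FPKM in mature B cells, outside the interval of its share of counts. Depth limits Bad, Bbc3 and Bcl2a1b in every library and Bcl2 in pre-B and immature B cells. It also limits Bcl2l1 in immature and mature B cells (10 and 6 counts) and Bak1 and Pmaip1 in immature B cells (6 and 7). Bax had 10 or 12 counts in every library but the mature one.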

Other observations

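The FPKM value that 1 count was worth differed between libraries for the same member. For Mcl1 it lay between 0.115 and 0.131 in the 4 libraries, for Bax between 0.217 and 0.394, for Bcl2l11 between 0.0866 and 0.172, and for Bcl2l1 between 0.0773 and 0.167. Of the 1005 circRNAs listed, 0 had a member as parental gene.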
